A study of Mus musculus with 6 samples.

Results

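The activity-regulated immediate early genes examined here were 37 genes chosen by name, as the non-control probes whose gene name on the array was a member of the list, with Snf1lk read as Sik1. Of these 37 genes, 36 had a probe of that name, on 48 of 41174 non-control probes. Dusp5 was not matched by name and is not analysed here. A probe was tested where it stood well above background on at least 3 of the 6 arrays, whatever the group, and the brightest tested probe stood for each gene. In this way 35 members, with 47 probes, entered the tests beside the rest of 18154 genes on 27322 probes. All 35 were well above background on all 6 arrays. Nr4a3, an orphan nuclear receptor, was not well above background on any of the 6 arrays and is given no level.

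Total RNA from the dissected cerebral cortex of male mice had been labelled with Cy3 and hybridised to Agilent arrays, 1 sample per array, to compare knock-out with control cortex. Cux2 is a homeobox gene expressed in neurons of the upper cortical layers. The 3 controls (samples 15, 62 and 16) carry wild type in their titles and Cux2+/- as genotype, a conflict the labels do not settle. The 3 knock-outs (samples 53, 48 and 54) are labelled Cux2-/-. Strain, age, the nature of the mutant allele and the handling of the mice before dissection are not given in the sources used here. Whether every sample came from its own mouse is not stated, so the tests rest on variation among samples that may be partly technical. Per the file headers the arrays lay on 2 slides, with control 15, knock-out 48 and knock-out 54 on slide 1 and control 62, control 16 and knock-out 53 on slide 2.

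Immediate early genes are transcribed within minutes of a stimulus from factors already present in the cell. In neurons, calcium entry and cyclic AMP activate kinases that act on CREB and on the SRF partners of the Elk family, which bind elements near the start of these genes. Many of the products are transcription factors that switch on a later set of genes, others act at synapses or outside the cell, and others, such as the Dusp phosphatases, switch the kinase signal off. In cortex the transcripts of Fos, Arc, Egr1 and Npas4 are widely used as marks of recent neuronal activity, of sensory experience and of arousal before death.

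The promoters of 7 members, each with a single RefSeq start, are shown because they carry the letters that CREB binds and because these members stood higher on slide 2 at an unadjusted limma p below 0.05. They were chosen after those values were seen. Each is the 250 bases before the start of transcription, from RefSeq on build GRCm38.p6, written 5′ to 3′ on the gene's own strand. Capitals mark the cAMP response element half-site TGACG, or CGTCA where it lies on the other strand, and 8 capitals in a row (TGACGTCA) mark the full element, which holds 2 overlapping half-sites. Fos lies on the plus strand (chr12:85473640-85473889), Nr4a1 on the plus strand (chr15:101266596-101266845), Junb on the minus strand (chr8:84978749-84978998), Npas4 on the minus strand (chr19:4989972-4990221), Btg2 on the minus strand (chr1:134079156-134079405), Dusp1 on the minus strand (chr17:26508473-26508722) and Cyr61, RefSeq's Ccn1, on the minus strand (chr3:145649986-145650235).
Fos: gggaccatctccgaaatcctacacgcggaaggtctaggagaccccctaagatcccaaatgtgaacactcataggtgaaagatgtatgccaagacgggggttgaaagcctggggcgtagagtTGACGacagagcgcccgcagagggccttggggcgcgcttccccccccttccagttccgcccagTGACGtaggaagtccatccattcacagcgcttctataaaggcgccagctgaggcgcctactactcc
Nr4a1: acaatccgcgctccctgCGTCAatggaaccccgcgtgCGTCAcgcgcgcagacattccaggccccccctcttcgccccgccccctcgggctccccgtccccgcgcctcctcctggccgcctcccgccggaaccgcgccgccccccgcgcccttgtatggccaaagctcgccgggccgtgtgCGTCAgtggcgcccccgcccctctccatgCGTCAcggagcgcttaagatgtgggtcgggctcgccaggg
Junb: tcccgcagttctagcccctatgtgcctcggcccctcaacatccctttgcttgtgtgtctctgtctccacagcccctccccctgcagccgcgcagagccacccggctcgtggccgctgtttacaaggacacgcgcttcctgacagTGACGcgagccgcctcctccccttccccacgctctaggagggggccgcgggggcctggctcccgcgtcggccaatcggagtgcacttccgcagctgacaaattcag
Npas4: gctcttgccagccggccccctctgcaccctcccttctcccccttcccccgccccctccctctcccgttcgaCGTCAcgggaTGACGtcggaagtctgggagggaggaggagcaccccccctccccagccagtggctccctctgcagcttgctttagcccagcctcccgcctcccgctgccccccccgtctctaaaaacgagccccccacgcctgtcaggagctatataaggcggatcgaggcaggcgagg
Btg2: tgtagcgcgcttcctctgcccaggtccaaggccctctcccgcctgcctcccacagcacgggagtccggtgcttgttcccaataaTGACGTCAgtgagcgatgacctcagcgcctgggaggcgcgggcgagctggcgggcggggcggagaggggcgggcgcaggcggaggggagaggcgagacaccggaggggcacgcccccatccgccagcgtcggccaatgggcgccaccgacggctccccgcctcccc
Dusp1: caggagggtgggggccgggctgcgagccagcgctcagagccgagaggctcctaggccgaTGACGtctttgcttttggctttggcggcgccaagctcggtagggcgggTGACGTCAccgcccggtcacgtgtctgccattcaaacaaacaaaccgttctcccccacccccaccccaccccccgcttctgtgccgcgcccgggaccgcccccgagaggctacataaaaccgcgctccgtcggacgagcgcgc
Cyr61: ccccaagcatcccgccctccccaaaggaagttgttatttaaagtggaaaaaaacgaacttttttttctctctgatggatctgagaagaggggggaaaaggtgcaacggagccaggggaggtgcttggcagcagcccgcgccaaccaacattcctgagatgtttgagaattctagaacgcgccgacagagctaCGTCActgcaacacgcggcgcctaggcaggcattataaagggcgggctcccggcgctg
The marked letters start 129 and 66 bases before the start of Fos, 106 bases before that of Junb, 179 and 169 bases before that of Npas4 and 58 bases before that of Cyr61. Nr4a1 has 4 half-sites, 233, 213, 69 and 40 bases before its start. Dusp1 has 3, of which those at 143 and 140 bases form a full element, and the pair in Btg2 at 166 and 163 bases forms another.

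A promoter was held for 28 of the 37 members; there was none for Arc, Dusp4, Egr1, Egr3, Ier2, Klf10, Nptx2, Sik1 and Trib1. The half-site TGACG, searched on both strands in the same window, lay in 19 of the 28 (67.9%), against 19.8% of all 27025 genes with a promoter. A gene with several starts was counted where any of them carried the letters. The full element TGACGTCA, which is also counted among the half-sites, lay in 4 of 28 (14.3%) against 1.77%. The EGR site GCGNGGGCG lay in 9 of 28 (32.1%) against 5.33%, and the CArG box, the site of SRF, in 2 of 28 (7.14%) against 1.62%. The AP-1 site TGANTCA lay in 0 of 28 against 7.82%, and TATAAA in 5 of 28 (17.9%) against 8.94%. Taken per promoter rather than per gene, the members' promoters were also richer in G and C, with a median of 64.0% against 52.4%. They had a median of 18 CG dinucleotides against 6, and the half-site and EGR letters hold CG themselves. A match describes letters in this window and not a bound site.

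Signals are given as log2 of the processed intensity relative to the array's 75th percentile, so that 0 is the level of that percentile and a difference of 1 is a doubling. Over all genes the arrays were alike, with Pearson's r from 0.989 to 0.992 within groups and from 0.988 to 0.991 between them, and 58.5% to 72.7% of probes were well above background. A total of 19 genes (24 probes) passed an adjusted p below 0.05 with limma. The brighter Cux2 probe differed by -0.12 between groups (limma adjusted p = 0.862) and the dimmer by 0.08. Where the probes lie relative to the mutation is not known, so neither checks the labels. All 12 markers of cortical excitatory neurons were well above background on all 6 arrays.

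No member differed between knock-outs and controls past the adjusted threshold. The count was 0 of 35, where 19 of 18154 genes (0.105%) passed, 9 higher (0.0496%) and 10 lower (0.0551%) in knock-outs, and the lowest adjusted p of a member was 0.559, for Nptx2. At an unadjusted p below 0.05, 3 members were higher in knock-outs (Nptx2, Egr3 and Jun), against 3.83% of all genes, and 0 were lower, against 3.95%. The difference, knock-out minus control, was above 0 for 15 of 35 members, against 49.4% of all genes. With no scaling between arrays it was above 0 for 25 members, and the median over all genes then stood at 0.17. In the main setting its median was -0.04 over the members and -0.002 over all genes, and single members ranged from -0.35 (Egr2) to 0.70 (Nptx2). The differences that follow are given as sizes from the main setting, since none passed. The sign turned in at least 1 of 19 alternative settings for 18 members (Atf3, Cyr61, Dusp1, Dusp4, Dusp6, Dusp14, Egr1, Fos, Gadd45b, Ier5, Junb, Klf2, Maff, Nr4a1, Plk2, Plk3, Rgs2 and Sik1). All knock-outs lay above all controls for 4 members (Nptx2, Inhba, Jun and Fosl2), against 6.42% of all genes, and below them for 1 member (Klf4), against 6.81%. All 12 microglia markers had lower means in knock-outs (median -0.46), their summed signal, as multiples of the 75th percentile, being 66.1 to 85.3 in controls and 53.6 to 57.5 in knock-outs, and 9 of them were lower at an unadjusted p below 0.05. All 10 striatum markers had lower means in knock-outs too (median -0.47, or -0.57 with slide as a block), with 2 lower at that threshold without slide and 7 with it, and sums of 53.4 to 98.2 in controls and 51.8 to 62.8 in knock-outs. The groups overlapped here, since the gap came from controls 15 and 62. The striatum markers' mean deviation from their own means was 0.50 and 0.48 on these. It was -0.22 on control 16, within the range of -0.36 to -0.15 over the knock-outs. Of 8 astrocyte markers, 7 had lower means in knock-outs (median -0.16), with sums of 227 to 267 in controls and 208 to 225 in knock-outs. Each of these markers was well above background on every array. The part of these differences in the members' values was not tested, and in bulk tissue fewer cells of a type and less RNA per cell cannot be told apart.

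**Figure D1:**
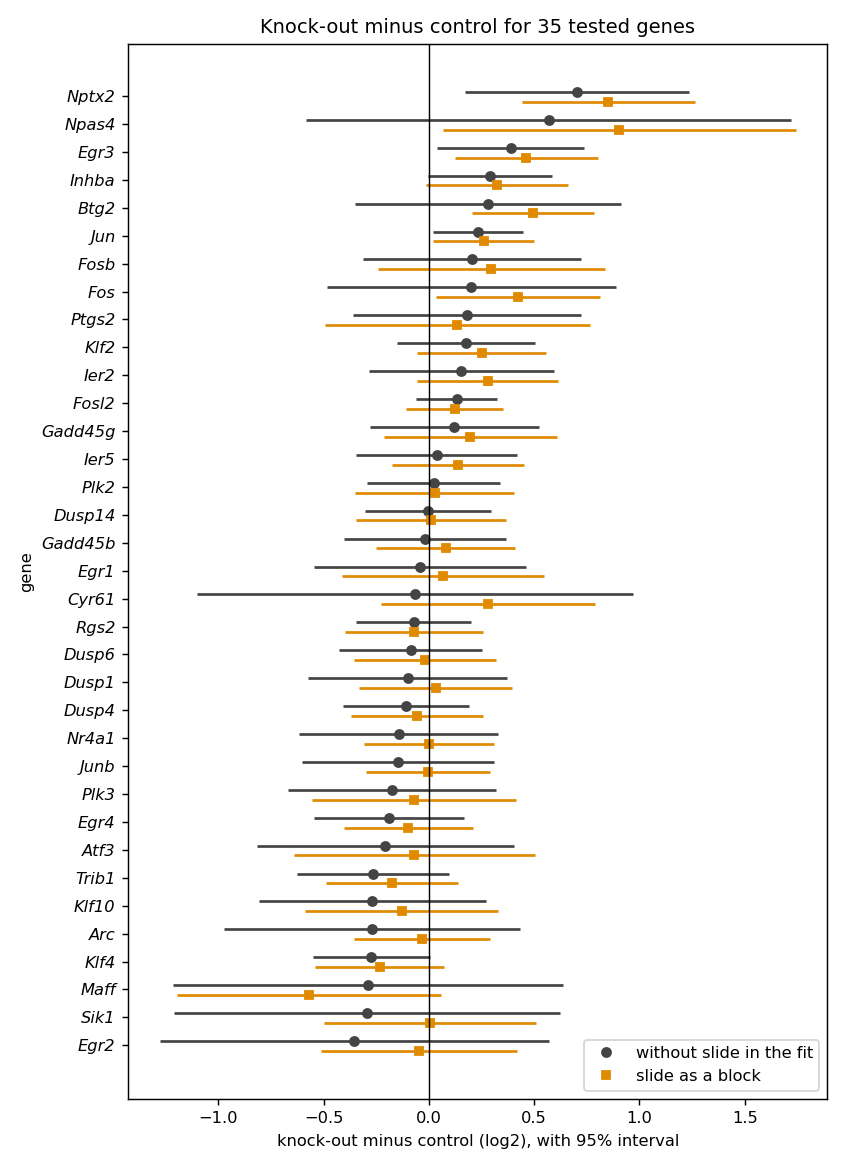
Knock-out minus control in log2 units (x axis) for each of the 35 tested genes (y axis), with bars for 95% intervals, from the fit without slide (dark circles) and with slide as a block (orange squares). Without slide the intervals of Nptx2, Egr3 and Jun lie above 0, and with slide those of Npas4, Btg2 and Fos do so too.

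Among the secreted and synaptic products, Nptx2 had the largest difference in size of all members in the main setting. With slide as a block that of Npas4 was larger (0.90 against 0.85), as it was without knock-out 54 (1.06 against 0.68). Without control 15 those of Sik1 (-0.69), Egr2 (-0.58), Arc (-0.55) and Klf10 (-0.52) were larger in size than that of Nptx2 (0.46). Without knock-out 53 that of Egr2 was larger in size (-0.74 against 0.65). Nptx2 is a secreted pentraxin that gathers AMPA receptors at excitatory synapses on interneurons. It stood at -0.42, 0.25 and 0.40 in controls 15, 62 and 16 and at 0.87, 0.63 and 0.82 in knock-outs 53, 48 and 54. All 3 knock-outs lay above all 3 controls, and control 15 lay far below the others. The means were 0.78 ± 0.13 and 0.07 ± 0.43 (SD, n = 3 each), a difference of 0.70 (95% interval 0.17 to 1.23) or 1.63-fold, with limma adjusted p = 0.559. Without control 15 the difference was 0.46. Within slide 1 the 2 knock-outs lay 1.15 above control 15 alone, and within slide 2 knock-out 53 alone lay 0.55 above the 2 controls, so each value rests on a group of 1 array. With slide as a block the difference was 0.85 (limma adjusted p = 0.382). The unadjusted p stayed below 0.05 in all 19 alternative settings tried, and the adjusted p in 0 of them, with a range of 0.327 to 0.982.

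Inhba encodes the beta A subunit of activin, a secreted factor of the TGF-beta family induced by synaptic activity. It stood at 0.60, 0.96 and 0.88 in controls 15, 62 and 16 and at 1.02, 1.05 and 1.24 in knock-outs 53, 48 and 54. The groups did not overlap, and the difference was 0.29 (limma adjusted p = 0.673). Arc encodes the cytoskeletal protein that promotes the removal of AMPA receptors from synapses and whose mRNA travels into dendrites. It stood at 4.43, 5.43 and 5.10 in controls 15, 62 and 16 and at 5.11, 4.52 and 4.51 in knock-outs 53, 48 and 54. The groups overlapped, with control 62 highest and control 15 lowest, and the difference was -0.27 (95% interval -0.97 to 0.43). It was -0.03 with slide as a block, -0.05 without control 62 and -0.55 without control 15. Cyr61, a secreted matrix protein, and Ptgs2, the inducible cyclooxygenase of prostaglandin synthesis, differed by -0.06 and 0.18 with groups that overlapped.

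**Figure D2:**
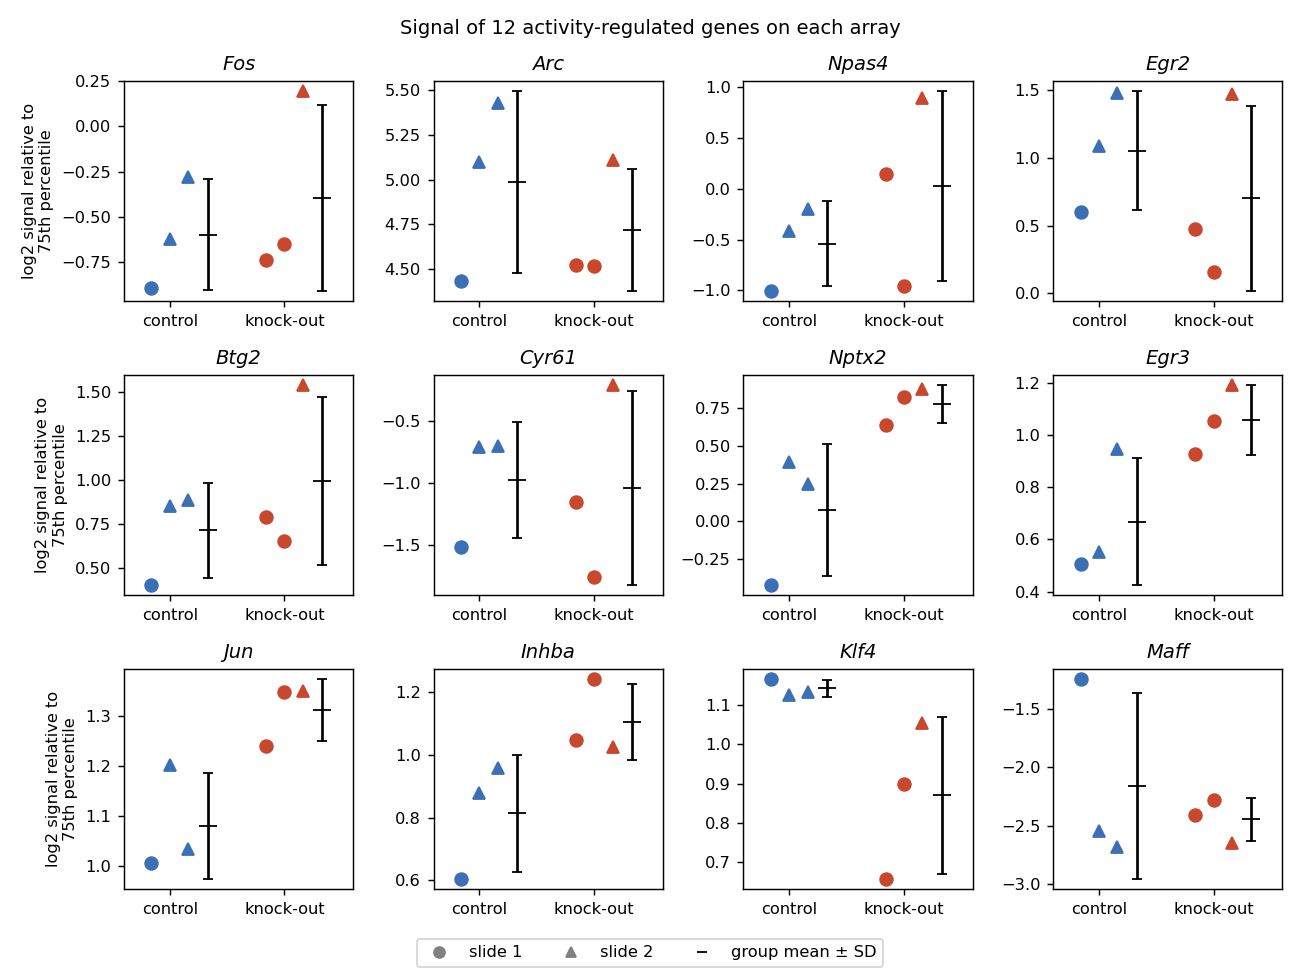
Signal of 12 members on each array, as log2 relative to the 75th percentile of that array (y axis, with its own range in each panel), for controls (blue) and knock-outs (red). Circles are arrays of slide 1 and triangles arrays of slide 2, with the group mean and SD beside them; for Fos, Arc, Egr2, Btg2 and Cyr61 all triangles lie above all circles, and for Nptx2, Jun and Inhba all red points lie above all blue ones.

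Of the zinc-finger transcription factors, Egr3 had the largest difference in size in the main setting. That of Egr2 was larger in size with median scaling, with array weights and with the mean of a gene's probes. It was also larger when control 15, control 16 or knock-out 53 was left out. The Egr proteins bind a GC-rich element in the promoters of synaptic genes, and Egr3 acts downstream of neuronal activity and of growth factors. Egr3 stood at 0.51, 0.95 and 0.55 in controls 15, 62 and 16 and at 1.19, 0.93 and 1.05 in knock-outs 53, 48 and 54. Knock-out 48 lay below control 62, so the groups overlapped, with means of 1.06 ± 0.13 in knock-outs and 0.67 ± 0.24 in controls (SD, n = 3 each). The difference was 0.39 (95% interval 0.04 to 0.74, limma adjusted p = 0.627). A second probe, far dimmer at a mean level of -4.20 against 0.86, gave 0.27 (limma adjusted p = 0.898). The p was below 0.05 in 10 of 19 alternative settings. With slide as a block the difference was 0.46 (limma adjusted p = 0.564).

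The other Egr genes had differences below 0 in the main setting. Egr1, the member of the family used most as an activity mark, stood at 3.91, 4.65 and 4.09 in controls 15, 62 and 16 and at 4.32, 4.25 and 3.96 in knock-outs 53, 48 and 54. Its groups overlapped widely and the difference was -0.04 (95% interval -0.55 to 0.46). Egr2, which also directs myelination by Schwann cells, differed by -0.35, with overlapping groups, a value that was -0.05 with slide as a block, -0.08 without knock-out 54 and -0.74 without knock-out 53. Egr4 differed by -0.19, also with overlapping groups, and by -0.07 without knock-out 54. Klf4, a Krüppel-like factor that restrains axon growth, stood at 1.17, 1.14 and 1.13 in controls 15, 62 and 16 and at 1.05, 0.66 and 0.90 in knock-outs 53, 48 and 54. All 3 knock-outs lay below all 3 controls, which lay close together, and the difference was -0.27 (limma adjusted p = 0.673). Klf10, a factor induced by TGF-beta, differed by -0.27. For Klf2, a factor best known from vessel lining and T cells, the brightest probe differed by 0.18 and a second probe by -0.27, the only member whose tested probes differed in sign.

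The bZIP factors form the AP-1 family, in which a Fos protein pairs with a Jun protein, and its relatives Atf3 and Maff. Jun stood at 1.01, 1.03 and 1.20 in controls 15, 62 and 16 and at 1.35, 1.24 and 1.35 in knock-outs 53, 48 and 54. All 3 knock-outs lay above all 3 controls, and the difference was 0.23 (95% interval 0.02 to 0.45, limma adjusted p = 0.633). Its p was below 0.05 in 11 of 19 alternative settings. Fosl2, a Fos relative, stood at -1.46, -1.47 and -1.47 in controls 15, 62 and 16 and at -1.37, -1.40 and -1.23 in knock-outs 53, 48 and 54. The groups again did not overlap, with a difference of 0.13 (limma adjusted p = 0.799). Fos itself stood at -0.89, -0.28 and -0.62 in controls 15, 62 and 16 and at 0.20, -0.74 and -0.65 in knock-outs 53, 48 and 54. Knock-out 53 was the highest array and the other 2 knock-outs lay among the controls, so the difference of 0.20 had an interval of -0.48 to 0.89.

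Fosb, source of the long-lived truncated form deltaFosB, differed by 0.20. Junb, which forms weaker AP-1 pairs than Jun, stood at 4.93, 5.22 and 5.13 in controls 15, 62 and 16 and at 5.35, 4.70 and 4.79 in knock-outs 53, 48 and 54, with the highest and the 2 lowest arrays all knock-outs. Its difference was -0.15 (95% interval -0.60 to 0.31). Atf3, a factor of the stress and injury response, differed by -0.21, with knock-out 48 at -4.38 and the other 5 arrays between -3.82 and -3.46. Maff, a small Maf protein without an activation domain, differed by -0.29, with control 15 at -1.24 and the other 5 arrays between -2.69 and -2.28. Without control 15 the difference for Maff turned to 0.17. These 4 members had overlapping groups.

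Npas4 is a bHLH-PAS factor induced by calcium entry in neurons and few other stimuli, and it directs the formation of inhibitory synapses. It stood at -1.01, -0.20 and -0.42 in controls 15, 62 and 16 and at 0.90, 0.14 and -0.96 in knock-outs 53, 48 and 54. The knock-outs included the highest array and the second lowest, and their SD of 0.93 was the largest of any member in either group. The difference was 0.57 (95% interval -0.58 to 1.72, limma adjusted p = 0.861). With slide as a block it was 0.90 (95% interval 0.07 to 1.74, limma adjusted p = 0.639), and without knock-out 53 it was 0.13 in the fit without slide. Nr4a1, an orphan nuclear receptor that limits the number of spines in active neurons, stood at 5.05, 5.47 and 5.30 in controls 15, 62 and 16 and at 5.49, 4.82 and 5.08 in knock-outs 53, 48 and 54. Its groups overlapped, with a difference of -0.14. Ier2 and Ier5, small nuclear proteins induced by growth factors and stress, differed by 0.15 and 0.04.

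Differences were smallest among the phosphatases of MAP kinases, which end the kinase signal that induces them, with a median size of 0.09. Dusp1, which acts on JNK and p38 in the nucleus, differed by -0.10, Dusp4, a nuclear phosphatase, by -0.11, Dusp6, a cytoplasmic phosphatase, by -0.09 and Dusp14 by -0.003. All 4 had overlapping groups. The 95% interval for Dusp6 was -0.43 to 0.25 and for Dusp1 -0.57 to 0.37, so differences within those bounds could not be told from 0 with 3 arrays a group.

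Of the regulators of growth arrest and signalling, Btg2, an antiproliferative partner of mRNA deadenylation, stood at 0.40, 0.89 and 0.85 in controls 15, 62 and 16 and at 1.54, 0.79 and 0.65 in knock-outs 53, 48 and 54. Knock-out 53 lay above all other arrays, and the difference was 0.28 without slide and 0.49 with slide as a block (limma adjusted p = 0.462), but 0.007 without knock-out 53. Trib1, a pseudokinase that feeds proteins to degradation, differed by -0.27 (limma adjusted p = 0.771). Sik1, a salt-inducible kinase that keeps CREB's coactivators out of the nucleus, differed by -0.29, by 0.006 with slide as a block, by 0.03 without control 16, by -0.69 without control 15 and by 0.25 with normexp background correction. Gadd45b and Gadd45g, which take part in the stress response and in active DNA demethylation in neurons, differed by -0.02 and 0.12. Rgs2, which turns off Gq-coupled receptors, differed by -0.07. The Polo-like kinases Plk2, which scales down synapses after prolonged firing, and Plk3 differed by 0.02 and -0.18. None of these 8 had groups that did not overlap.

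Within groups the members had a median residual SD of 0.27, against 0.137 over all genes. For the 26 members above the 75th percentile of signal it was 0.22, against 0.104 over all genes above it. Of the 35 members, 8 (Fos, Maff, Egr2, Npas4, Arc, Cyr61, Btg2 and Sik1) lay above the 90th percentile of all genes, where 10% of genes lie. Control 15 was the lowest array for 17 of 35 members, against 17.7% of all genes. Control 62 was the highest for 17, against 21.1%, and knock-out 53 for 11, against 13.7%. The members' mean deviation from their own means was -0.20 on control 15, -0.10 on knock-out 48 and -0.12 on knock-out 54, against 0.18 on control 62, 0.00 on control 16 and 0.24 on knock-out 53. Both groups thus held arrays on which most members were high and arrays on which most were low: 30 of 35 members were above their own mean on knock-out 53, 28 on control 62, 6 on control 15 and 10 on knock-out 54.

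**Figure D3:**
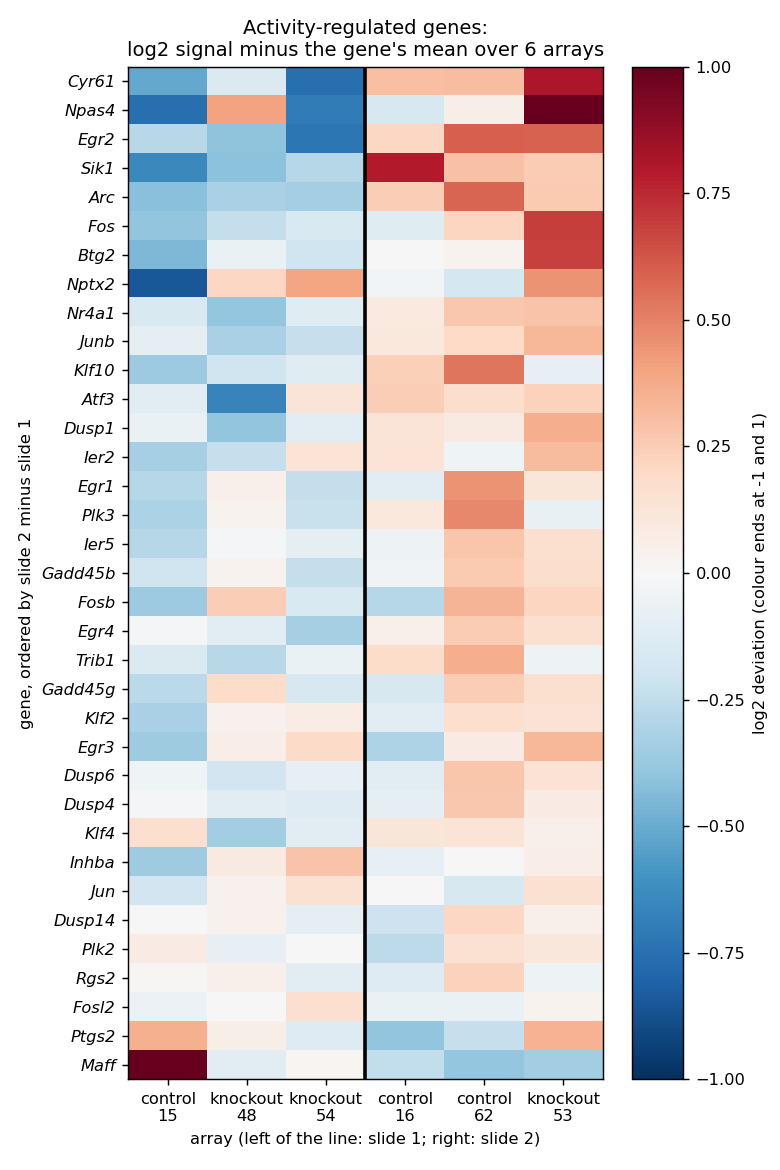
Deviation of each of the 35 tested genes (rows, ordered by slide 2 minus slide 1) from its own mean over the 6 arrays, in log2 units, with arrays of slide 1 left of the black line and arrays of slide 2 right of it. The upper rows are mostly blue on slide 1 and red on slide 2 in both groups, and Maff in the lowest row is the reverse, red on control 15.

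The 3 arrays of slide 1 had the lowest means. The comparison of slides was chosen after the values were seen and is a description. In the fit with both group and slide, 32 of 35 members were higher on slide 2, against 45.5% of all genes, and the median of slide 2 minus slide 1 was 0.29 over the members and -0.02 over all genes. For the 26 members above the 75th percentile of signal the median was 0.28, against -0.02 over the genes above it. At an unadjusted p below 0.05, 12 members were higher on slide 2 (Fos, Junb, Egr2, Npas4, Nr4a1, Ier2, Arc, Nptx2, Cyr61, Dusp1, Btg2 and Sik1), against 2.94% of all genes, and 1 was lower (Maff), against 3.13%. All 3 arrays of slide 2 lay above all 3 of slide 1 for 13 members, against 4.73% of all genes, and below them for 1, against 6.71%. With limma 0 of 18154 genes passed an adjusted p below 0.05 for slide, and the lowest adjusted p of a member was 0.597. Slide, the animals on it and their dissection cannot be told apart in this design.

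Cyr61 had the largest slide difference of the members. In the order control 15, knock-out 48, knock-out 54 and then control 62, control 16, knock-out 53, it stood at -1.52, -1.16 and -1.76 on slide 1 and at -0.70, -0.71 and -0.20 on slide 2. Each array of slide 2 lay above each of slide 1, with a difference of 1.04 (95% interval 0.53 to 1.55). In the same order Arc stood at 4.43, 4.52 and 4.51 on slide 1 and at 5.43, 5.10 and 5.11 on slide 2. The 3 arrays of slide 1 lay close together across both genotypes, and the slide difference was 0.71 (95% interval 0.39 to 1.04, limma adjusted p = 0.597).

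Egr2 stood at 0.60, 0.48 and 0.15 on slide 1 and at 1.48, 1.09 and 1.47 on slide 2, with a slide difference of 0.92. Sik1 stood at -3.09, -2.86 and -2.73 on slide 1 and at -2.15, -1.66 and -2.19 on slide 2, with a slide difference of 0.90. In both the slides separated with no overlap and the genotypes did not. Fos differed by 0.67 and Btg2 by 0.64 between slides, again with no overlap, and Npas4 by 1.004, with knock-out 48 of slide 1 above controls 62 and 16 of slide 2. Junb (0.42), Nr4a1 (0.44), Dusp1 (0.40), Klf10 (0.42), Atf3 (0.41), Egr4 (0.28) and Trib1 (0.27) also separated by slide. All 7 zinc-finger factors, all 4 phosphatases and all 8 regulators of growth arrest and signalling were higher on slide 2.

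The members lower on slide 2 were Maff (-0.84), Ptgs2 (-0.14) and Fosl2 (-0.03). For Maff the arrays of slide 2 lay below all of slide 1, on which control 15 stood far above the other 2. A second Fosl2 probe gave 0.28. Ptgs2 stood at -2.18, -2.48 and -2.67 on slide 1 and at -2.77, -2.93 and -2.18 on slide 2, with the slides overlapping. Npas4 and 18 others were higher on slide 2 with slides that overlapped. Among these Nptx2 differed by 0.44, Ier2 by 0.37, Egr1 by 0.33, Plk3 by 0.31, Ier5 by 0.31, Gadd45b by 0.29 and Fosb by 0.28. The remainder, down to Jun (0.08), Plk2 (0.01) and Rgs2 (0.01), lay below these. Among tested members with a promoter in hand, the median slide difference was 0.40 (quartiles 0.22 and 0.64) for the 17 with a TGACG half-site and 0.10 (quartiles 0.04 and 0.23) for the 9 without one. Over all tested genes with a promoter it was -0.01 both for the 3377 with the half-site and for the 8304 without it. Single members ranged from -0.84 to 1.04 with the half-site and from -0.14 to 0.31 without it. The 9 members with no promoter in hand entered neither side. The split of the members was made after their values were seen and was not tested.

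With slide as a block, the group difference was above 0 for 22 of 35 members, against 48.4% of all genes, with a median of 0.03 against -0.01. At an unadjusted p below 0.05, 6 members were higher in knock-outs (Nptx2, Btg2, Egr3, Jun, Fos and Npas4), against 3.54% of all genes, and 0 were lower, against 4.14%. An adjusted p below 0.05 was reached by 0 members and by 7 genes (0.0386%), the lowest for a member being 0.382. The members' median residual SD was 0.171 with the block, against 0.132 over all genes. Slide 1 holds 1 control (15) and slide 2 holds 1 knock-out (53), the arrays with the members' lowest and highest mean deviation, so each difference within a slide rests on a group of 1 array and moves with that array. Within slide 1 the difference was above 0 for 20 members, against 47.5% of all genes, and within slide 2 for 25, against 49.5%. It was above 0 within both slides for 15, against 23.5%, and below 0 within both for 5, against 26.4%.

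**Figure D4:**
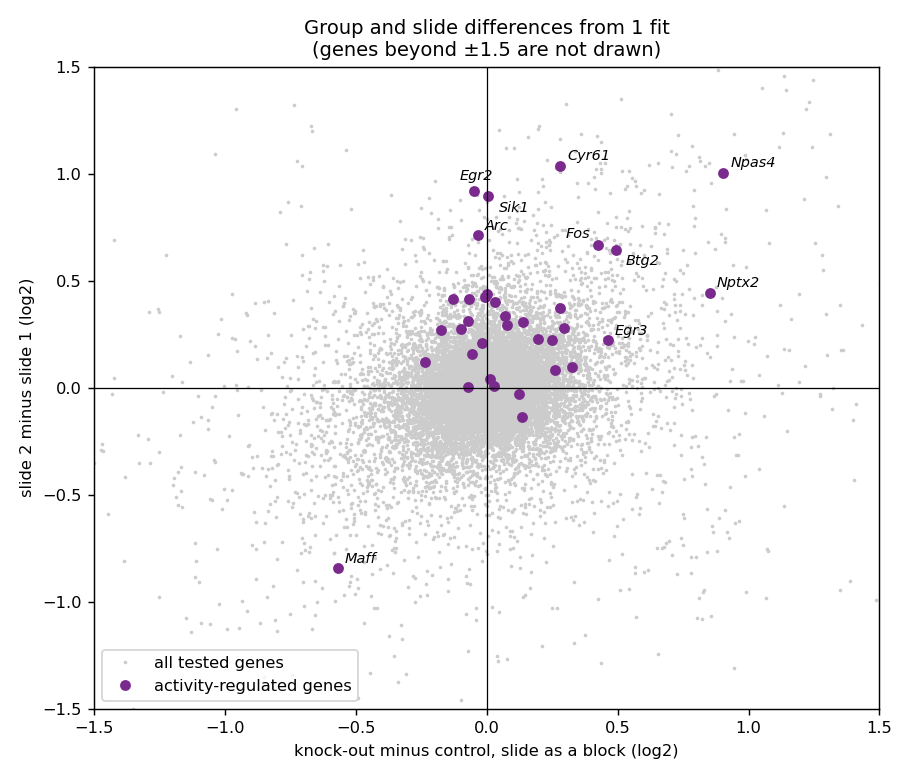
Knock-out minus control with slide as a block (x axis, log2) against slide 2 minus slide 1 from the same fit (y axis, log2), for all tested genes (grey) and the 35 members (purple). The purple points lie mostly above the horizontal line and on both sides of the vertical one, with Cyr61 (1.04) and Npas4 (1.004) highest and Maff (-0.84) lowest.

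Markers of tissue next to the cortex had slide medians away from 0, and so did those of interneurons within it. All 6 choroid plexus markers were higher on slide 2 (median 1.09), with a summed signal of 4.72 to 9.38 on slide 1 and 6.05 to 13.0 on slide 2, so the ranges overlapped. The 2 of 4 red blood cell markers tested were lower there (median -0.75, sums of 48.6 to 85.8 and of 27.0 to 41.9), as were 9 of 10 striatum markers (median -0.32) and 6 of 7 hippocampus markers (median -0.26). These medians are from the fit with group and slide. Striatum sums overlapped, at 58.0 to 98.2 on slide 1 and 51.8 to 85.9 on slide 2. Hippocampus sums overlapped too, at 14.3 to 16.3 and 14.0 to 14.4. By array, the striatum markers' mean deviation from their own means was 0.50 on control 15 of slide 1 and 0.48 on control 62 of slide 2. On the other arrays it was below 0. Excitatory neuron markers had a median of -0.04, with 5 of 12 higher on slide 2. Their sums were 311 to 321 on slide 1 and 281 to 309 on slide 2, so every array of slide 2 lay below every array of slide 1. Interneuron markers had a median of -0.23, with 2 of 8 higher on slide 2. Their sums were 107 to 128 on slide 1 and 105 to 110 on slide 2, so the ranges overlapped. Each tested marker of these lists was well above background on every array, and the part of these differences in the members' values was not tested.

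Genes around the members in the pathway had slide medians nearer to that of all genes than the members had. Of all genes, 45.5% were higher on slide 2. Of 34 genes that carry the signal to the nucleus, such as Creb1, Srf and Camk4, 32 were tested, 17 of them higher on slide 2 with a median of 0.01. The median was 0.02 over 24 other rapid response genes, of which 15 were higher, and 0.05 over 39 paralogs of members, of which 25 were. In both lists more genes were higher than lower on slide 2, as among the members. At an unadjusted limma p below 0.05, each of these lists had 2 genes higher (2.94% of all genes) and 2 lower (3.13%). Over 13 late response genes, such as Nrn1 and Pcsk1, the median was -0.05, with 5 higher. Heat shock genes had a median of -0.07 with 2 of 10 higher, hypoxia response genes -0.06 with 3 of 9, and clock and glucocorticoid genes -0.09 with 3 of 11. These lists were not tested against the members.

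**Figure D5:**
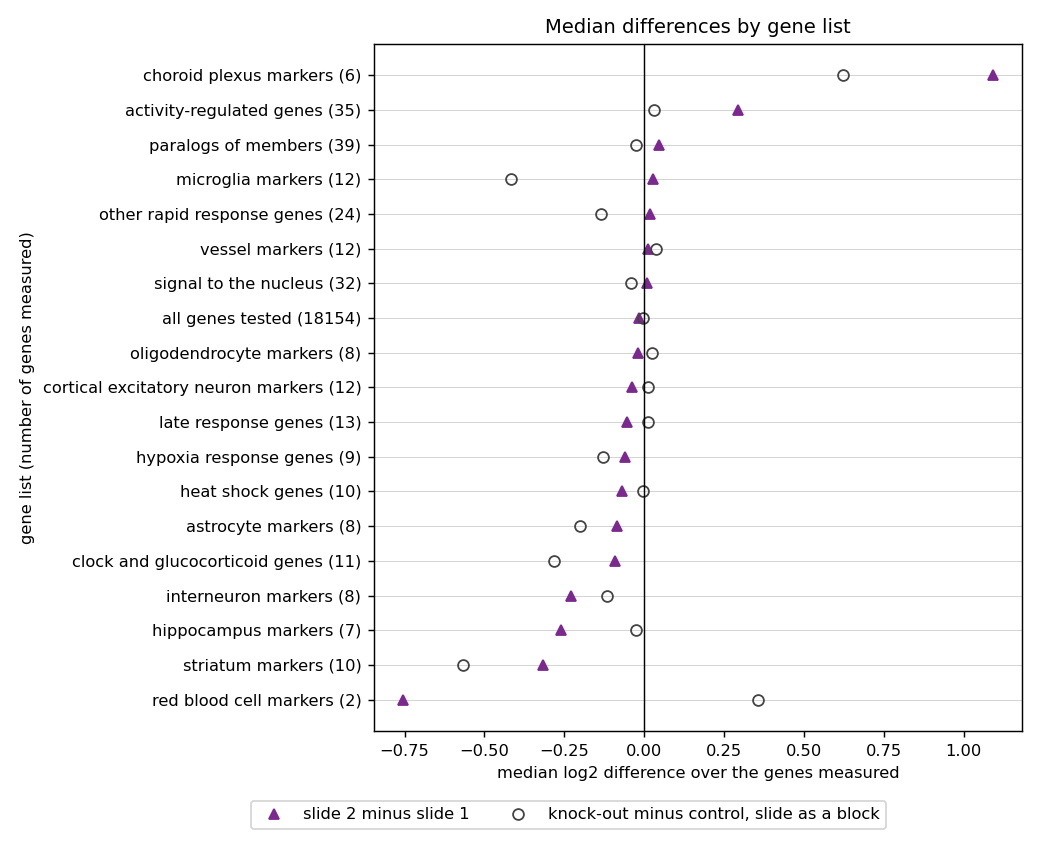
Median log2 difference (x axis) over the genes tested in each list (y axis, with the number of genes), for slide 2 minus slide 1 (triangles) and for knock-out minus control with slide as a block (circles). The 35 members have a slide median of 0.29, the signalling, rapid response, late response and paralog lists have medians from -0.05 to 0.05, and choroid plexus markers lie at 1.09.

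Between knock-outs and controls, 0 genes of these lists passed the adjusted threshold. Of the 24 other rapid response genes, 7 had a higher and 17 a lower mean in knock-outs (median -0.10), with 5 lower at an unadjusted p below 0.05 (3.95% of all genes). Per1, a clock gene also induced by activity, differed by -0.56, Arl4d, a small GTPase, by -0.57 and Nr4a2, the nuclear receptor next of kin to Nr4a1, by -0.31. The lowest limma adjusted p of that list was 0.363. The signalling genes had a median of -0.02 with 0 past that unadjusted threshold, and the late response genes 0.01, also with 0. Among the 39 paralogs 3 were higher (3.83% of all genes) and 3 lower (3.95%) at that threshold, including Klf11 (0.51), Plk4 (0.44) and Mafk (-0.41). Nr4a2 is on both lists and is counted among the lower genes of each. Of 11 clock and glucocorticoid genes, 9 had a lower mean in knock-outs (median -0.15), with 4 lower at that threshold: Per2 (-0.58), Per1, Bhlhe40 (-0.29) and Dbp (-0.27), of which Per1 and Bhlhe40 are also among the rapid response genes. Of 9 hypoxia response genes, 8 had a lower mean (median -0.11), with 0 past that threshold. Of 10 heat shock genes, 4 had a lower mean (median 0.01), also with 0 past it.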

How the data were processed

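Cortex RNA of 3 control and 3 knock-out samples was measured on 1 array each. Agilent Feature Extraction 9.1.3.1 read the spots and, per the file headers, gave a processed intensity after background subtraction and spatial detrending on each array. The authors also deposited values whose scale is log2 as judged against that intensity, with their centring not stated, and these served as an alternative. Control spots and 120 spot values with an outlier flag were left out, spots of a probe were averaged, and each array's 75th percentile was subtracted from log2 of the intensity. Probes were named by accession (22951), symbol (6659) or synonym (3109) through a RefSeq gene list of GRCm38.p6, and 8455 kept the array's name.

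Testing required a signal well above background on at least 3 arrays. Differences were fitted without a covariate by limma 3.58.1 (lmFit, eBayes) under R 4.3.3 (data.table, version 1.17.8), and p-values were adjusted by Benjamini and Hochberg over all tested probes at 0.05. The scripts were tested on simulated data. Figures used matplotlib 3.10.9 in Python 3.11.15. Slide was added as a block in a second fit, which also gave slide 2 minus slide 1; reading that term as a result was chosen after the values were seen. Alternatives changed scaling, background correction (normexp, offset 50), filter, variance model, weights, probe summary and arrays. Any member could be named, and of each other list up to 4 genes of lowest p. The members and lists were chosen with earlier results of these data known.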

Additional observations from a re-analysis of the deposited data

How the results depend on the processing

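With limma, 0 members passed the adjusted threshold in the main setting and in all 19 alternatives, the lowest adjusted p being 0.327, while 1 to 6 were higher and 0 to 3 lower at an unadjusted p below 0.05, a threshold met in either direction by 0.562% of all genes tested with normexp and by 4.92% to 10.6% in the other 18 alternatives. Of 35 members, 17 kept the sign of their group difference in all 19 alternatives and 18 did not. The number of members with a higher mean in knock-outs went from 15 to 25 with no scaling between arrays (median of all genes 0.17), to 23 without control 62 and to 22 with slide as a block. The median slide difference was 0.213 to 0.350 over the alternatives, and 29 to 33 members were higher on slide 2. Nr4a3 entered only with no filter. Over all genes, 24 probes and 19 genes passed in the main setting. The counts were 0 and 0 with normexp (102 genes at an unadjusted p below 0.05), 3 and 3 with a filter on at least 1 array, 2 and 2 with no filter, 9 and 7 with slide as a block, and 41 and 29 with trended, robust eBayes. Leaving out 1 array gave 1 to 21 probes and 1 to 13 genes: 2 genes without control 15, 1 without control 16, 12 without knock-out 53, 11 without knock-out 48 and 7 without knock-out 54. The members' median residual SD was 0.171 with slide as a block, against 0.132 over all genes. The cause of these changes was not tested. No paired analysis was possible because the groups share no replicate numbers. With 3 arrays a group, the width of the intervals limits what could be seen, and signal near background limits Nr4a3.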
